A study of Mus musculus with 26 samples.

Results

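Pax6 was measured by 5 probe sets of the Affymetrix Mouse 430 2.0 array, and all 5 were read in every one of 26 single mouse retinal amacrine cells, with 1 cell on each array. The gene was 1 of 18193 genes named on the array. Its probe sets were taken from the array's annotation, and a signal of at least 1000 was called detected, which is 2 times the trimmed mean signal of 500 that every deposited array had. Each gene was represented by its brightest probe set over the 26 cells, by mean log2 signal. For Pax6 this was 1419271_at, called the main probe set here.

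The cells came from mouse retinas into which a plasmid with green fluorescent protein (GFP) behind the Ndrg4 or the Synapsin promoter, pNdrg4::GFP or pSynapsin::GFP, had been electroporated in vivo or in explants, at P0 according to the series' design text. After papain dissociation, fluorescent cells were picked one by one with a pipette, so each group holds only cells in which the promoter fragment was active. A pSynapsin cell labelled E19 (n = 1) and pNdrg4 cells labelled P4 (n = 2) came after 4 days of retinal culture. The P5 cells were pSynapsin (n = 4) and pNdrg4 (n = 5) after 5 days of culture, and pNdrg4 without a stated culture (n = 10). The P8 cells, after 8 days of culture, were pSynapsin (n = 2) and pNdrg4 (n = 2). The E19 label and electroporation at P0 could not be brought together from the labels. Strain, sex and the number of animals were not given in the sources used here. Because the labels tie no cell to an animal, retina or culture, each group was treated as 1 sample. No p-value was computed for this reason, and every SD below is a spread over cells.

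Pax6 encodes a transcription factor that binds DNA through a paired domain and a homeodomain. It is needed for eye formation and is made in the dividing progenitors of the retina. When those progenitors have become neurons, it is kept in amacrine, ganglion and horizontal cells and switched off in photoreceptors. Amacrine cells are the inhibitory interneurons of the inner retina, and most release GABA, made by the enzyme Gad1 or Gad2, or glycine, taken up by the transporter Slc6a9.

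RefSeq places 2 Pax6 start sites on the plus strand of mouse chromosome 2 in build GRCm38.p6, 13567 bases apart. The signals of the array do not separate transcripts by their start, so the 250 bases before each start are shown to give the regions from which the measured RNA can begin. Of 6 motifs searched on both strands, the cyclic AMP response element TGACGTCA and the CCAAT box, in capitals below, matched before the first start, 76 and 54 bases upstream of it. The second region held no match to these letters, and neither region held the TATA box (TATAAA), the homeodomain core (TAATTA), the GC box (GGGCGG) or the E-box (CAGCTG). Of 32851 mouse promoter windows of the same length, 1.55% held TGACGTCA and 33.8% held CCAAT.
Pax6, chr2:105668646-105668895, plus strand: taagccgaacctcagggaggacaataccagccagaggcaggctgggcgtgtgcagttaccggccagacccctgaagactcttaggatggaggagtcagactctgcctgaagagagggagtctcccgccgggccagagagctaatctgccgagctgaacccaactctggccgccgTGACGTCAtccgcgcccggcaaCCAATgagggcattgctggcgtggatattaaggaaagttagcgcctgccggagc
Pax6, chr2:105682213-105682462, plus strand: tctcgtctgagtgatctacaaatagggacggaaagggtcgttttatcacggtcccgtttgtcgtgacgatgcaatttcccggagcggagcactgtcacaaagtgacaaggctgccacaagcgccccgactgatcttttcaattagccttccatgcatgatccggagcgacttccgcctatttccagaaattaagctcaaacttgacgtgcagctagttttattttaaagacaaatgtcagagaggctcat

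Pax6 was detected in 26 of 26 cells by its main probe set (100%, Clopper-Pearson 95% interval 86.8 to 100, counting error only). Only 124 of the 18193 genes, 0.682%, were detected in every cell. Pax6 was read on the brightest of its 5 probe sets, while 9183 genes had 1 probe set, so this share compares unlike genes. The lowest Pax6 signal was 2034, the median 19865 and the highest 62673, a 30.8-fold range. The signal passed 8000, which is 16 times the trimmed mean, in 25 cells, and 16000 in 20 cells. The exception at 8000 was the E19 cell, and without it the range was 2.68 on the log2 scale instead of 4.95.

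The E19 cell stood alone at 2034. In the P4 pNdrg4 cells the main probe set read 32213 and 20192. In the P5 pSynapsin cells it read 20385, 18573, 13577 and 11931, and in the cultured P5 pNdrg4 cells 24744, 24570, 19537, 18777 and 17445. The last were the tightest of the groups with more than 2 cells. The 10 P5 pNdrg4 cells without stated culture ranged from 16603 to 62673 around a median of 23489. They held the 2 highest cells of the study, A8 at 62673 and B3 at 39697. In the P8 cells the signals were 14356 and 11016 with pSynapsin and 17852 and 9755 with pNdrg4, and both pairs overlapped the lower P5 cells.

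By group median the order was P4 pNdrg4 (26203), P5 pNdrg4 without stated culture (23489), cultured P5 pNdrg4 (19537), P5 pSynapsin (16075), P8 pNdrg4 (13804), P8 pSynapsin (12686) and E19 (2034). Each group overlapped the next one in this order, with the exception of P8 pSynapsin and the E19 cell. The number of genes detected per cell had group medians of 2985, 2361.5, 3256, 3472, 3781, 3732.5 and 2306 in the same order. These medians were lower for the first 2 groups than for the next 4, with overlap between single cells, and the E19 cell had more genes detected than 5 of the P5 cells without stated culture. The part of this number in the order of Pax6 was not tested.

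**Figure D1:**
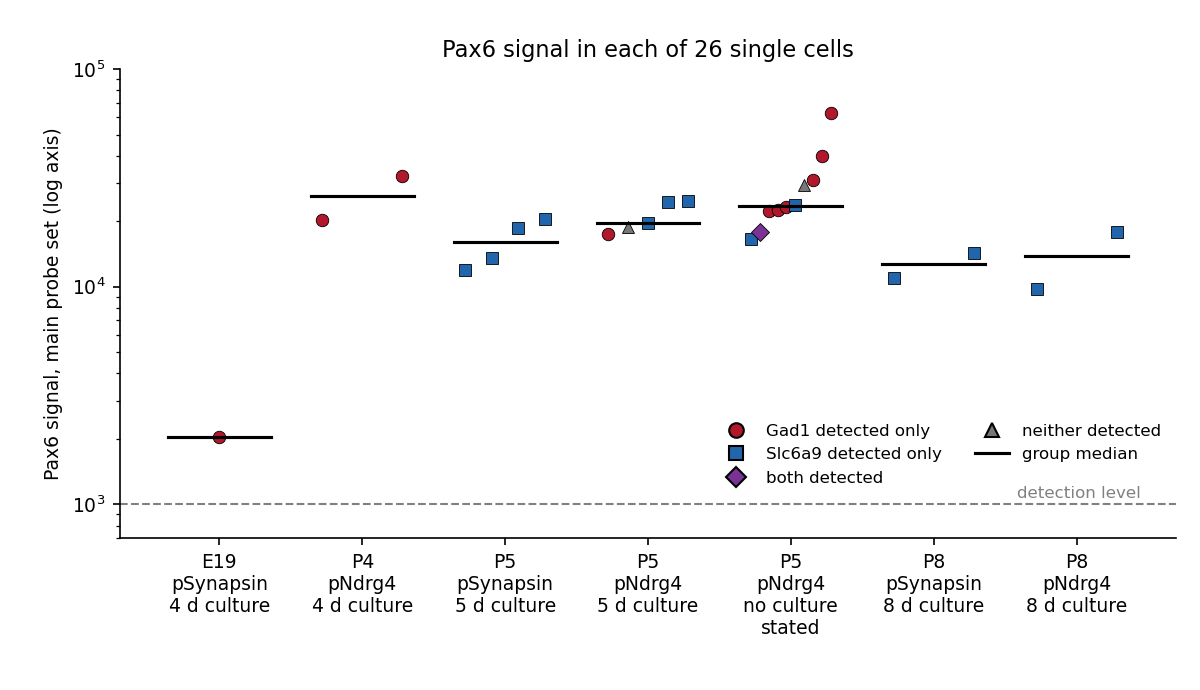
Signal of the main Pax6 probe set (log axis) in each of the 26 cells, by age, reporter and culture, with the shape of each point giving the detection of Gad1 and Slc6a9 and the black line the group median. All cells lie above the dashed detection level of 1000, 25 of them between 9755 and 62673, and the E19 cell lies at 2034.

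The other 4 probe sets gave a less uniform picture. 1437816_at was detected in 18 cells (69.2%, interval 48.2 to 85.7), with a median signal of 2865 and a range of 84.3 to 17930. 1452526_a_at, whose suffix marks a probe set made for alternative transcripts of the same gene, was detected in 17 cells (65.4%, interval 44.3 to 82.8), with a median of 1734 and a range of 11.4 to 8948.

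1425960_s_at, whose suffix marks probes shared by several transcripts, was detected in 3 cells (11.5%, interval 2.45 to 30.2). These were C1, D6 and C6 of the cultured P5 pNdrg4 group, at 1549, 1256 and 1202. 1456342_at was detected in 0 of 26 cells, for which the interval reaches up to 13.2%, and its highest signal was 950.5. None of the 5 is annotated to a second gene. Their positions along the transcript were not used here.

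Counted by cell, 2 cells had 1 Pax6 probe set detected, 13 had 2, 8 had 3 and 3 had 4. The 2 cells with the main probe set alone were the E19 cell and cell B1 of the P5 group without stated culture. The commonest set, in 8 cells, was the main probe set with 1437816_at and 1452526_a_at, followed by the main probe set with 1437816_at in 7 cells and with 1452526_a_at in 6 cells. At least 2 probe sets therefore detected Pax6 in 24 of the 26 cells.

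**Figure D2:**
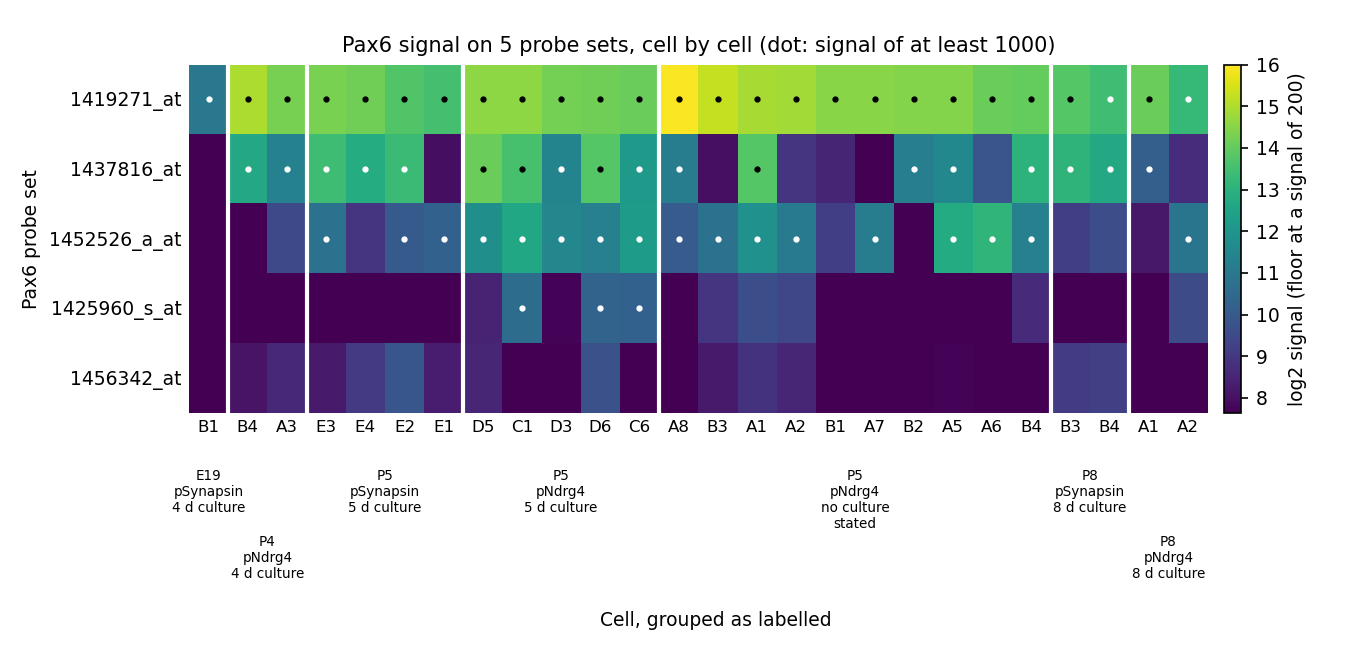
Log2 signal (colour, with signals under 200 raised to 200) of the 5 Pax6 probe sets in each cell, with cells in columns by group and, within a group, by falling signal of the main probe set. Dots mark a signal of at least 1000, which the main probe set reached in 26 cells, 1437816_at in 18, 1452526_a_at in 17, 1425960_s_at in 3 and 1456342_at in 0.

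Across cells the main probe set did not track 1437816_at or 1452526_a_at closely. Over the 26 cells the Spearman correlation of log2 signals between the main probe set and 1437816_at was 0.10 (Pearson 0.24), and Pearson's value was -0.02 without the 2 cells farthest from the median of the main probe set. With 1452526_a_at it was 0.14 (Pearson 0.27, and 0.06 without the 2 farthest cells). Within the 10 P5 pNdrg4 cells without stated culture, the Spearman values were -0.27 and -0.45. Cells here share the amplification and the scaling of their array, and the correlations are descriptions.

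Probe sets of the same gene usually tracked each other better than this. Among 388 genes whose main probe set was detected in at least 20 cells and another in at least 10 cells, the median correlation between them was 0.86, with quartiles of 0.52 and 0.94. Pax6, itself 1 of the 388, was at 0.10 between 1419271_at and 1437816_at, a lower value than all but 41 of these genes (10.6%). The genes were not matched to Pax6 for the number of cells detected, 26 and 18 on its 2 probe sets. Ppp1cc, Set and Hsp90aa1, with 26 cells on the main probe set and 17 to 19 on the other, had 0.54, 0.15 and 0.21. Among the Pax6 probe sets, the highest correlations were 0.59 between 1452526_a_at and 1425960_s_at and 0.51 between 1437816_at and 1456342_at, and 1425960_s_at and 1456342_at lay at the floor of 200 in 16 and 12 cells.

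The spread of the main probe set over cells depended on the E19 cell. With all 26 cells the SD of the log2 signal of Pax6 was 0.87, rank 70 from the lowest among the 124 genes detected everywhere, whose SDs ran from 0.45 to 1.52 with a median of 0.83. Without the E19 cell the SD of Pax6 was 0.59, rank 10 of 124, beside a median of 0.82. Within groups, that is around each group's own mean, it was 0.47, rank 12, beside a median of 0.78. The E19 cell, alone in its group, does not enter this value either. The genes in this comparison had to be high in every cell, and each was read on its brightest probe set. Without the E19 cell the SD of Pax6 was 2.10 on 1437816_at and 1.53 on 1452526_a_at, so its low rank held for the main probe set only.

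**Figure D3:**
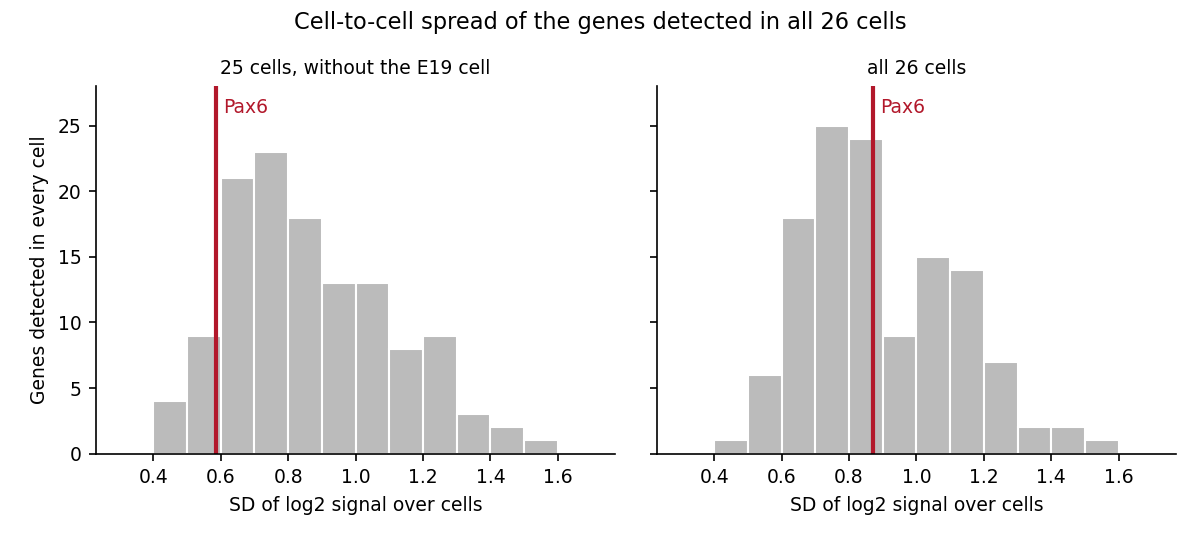
Histograms of the SD over cells of log2 signal for the 124 genes detected in all 26 cells, without the E19 cell on the left and with it on the right. The red line is the main Pax6 probe set. Pax6 lies at 0.59 without the E19 cell, in the low tail, and at 0.87 with it, near the median of 0.83.

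The E19 cell had 9.93-fold less Pax6 signal than the median of the other 25 cells, and 4.80-fold less than the next lowest cell, A2 of the P8 pNdrg4 group. On the log2 scale its deviation was -3.31 as deposited, -3.14 after quantile normalization and -3.59 after scaling to the 75th percentile of each array. Among the 124 genes detected everywhere, the deviation of this cell had a median of 0.32 and ran from -3.50 to 1.80, and that of Pax6 was the second lowest. Of the 124 genes, 14 had their highest signal in this cell and 11 their lowest.

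In the E19 cell, 5 of 18 measured amacrine transcription factors and 2 of 7 amacrine transmitter genes were detected. So were 2 of 8 measured markers of progenitors and cycling cells and 3 of 9 of Muller glia. Tfap2b and Tfap2a, AP-2 transcription factors of amacrine cells, read 15359 and 2056, beside medians of 14078 and 2188 in the other 25 cells. Gad1 read 7943, while Gad2 at 153.05 and Slc32a1, the vesicular GABA and glycine transporter, at 161.8 were not detected. Top2a, a topoisomerase of cycling cells, read 8359, and Ccnd1, a cyclin of the start of the cell cycle, read 17625, beside medians of 49.4 and 45.97 in the others. Top2a was also detected in 3 other cells, B1, B3 and B4 of the P5 group without stated culture, whose Pax6 signals were 23631, 39697 and 16603, and Ccnd1 in 5 others. Mki67 and Cdk1, further cell cycle genes, were detected in that B4 alone. The part of these genes in the low Pax6 signal was not tested, and with 1 cell of this age, age, reporter, culture and the cell itself cannot be told apart.

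The labelled cell type was set against marker genes. Slc32a1 was detected in 22 cells, Tfap2b in 20, Tfap2a in 16, Gad2 in 14, Slc6a9 in 14 and Gad1 in 11. Tcf4, a bHLH factor, and Abat, which breaks down GABA, were detected in 16 cells each, and Rorb, a nuclear receptor, in 14. Of the pan-neuronal genes, Snap25 was detected in 25 cells, Stmn3, Syt1, Nsg1 and Celf4 in 24, Uchl1 in 23, Elavl3 in 22, Tubb3 in 20 and Map2 in 19. Since ganglion and horizontal cells also keep Pax6, their markers were looked at too. Of 9 measured ganglion cell markers, 7 were detected in no cell, namely Rbpms, Thy1, Slc17a6, Pou4f3, Isl2, Nefh and Eomes. Sncg, a synuclein of ganglion cells, was detected in the E19 cell and in A8, and Pou4f1, a POU factor, in B4 of the P5 group without stated culture. Of 8 horizontal cell markers, Lhx1, Onecut1, Calb1 and Ndnf were detected in no cell, Prox1 in 2, Onecut2 in 4, Septin4 in 8 and Tfap2b, which is also on the amacrine list, in 20.

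Transcripts of cells that lack or lower Pax6 were present in places. Of 10 measured rod photoreceptor markers, 9 were detected in at least 2 cells, most widely Crx, a photoreceptor homeobox factor, in 14 cells and Rom1, an outer segment protein, in 13. Their summed signal was 747.1 in the E19 cell, 578.7 to 19116 in P4 cells, 7612 to 83805 in P5 pSynapsin cells, 314.6 to 6438 in cultured P5 pNdrg4 cells and 354.7 to 85563 in P5 pNdrg4 cells without stated culture. At P8 it was 9903 to 102648 in pSynapsin cells and 36864 to 49050 in pNdrg4 cells. Among Muller glia markers, Glul was detected in 18 cells, Dkk3 in 16, Car2 in 14, Vim in 11 and Rlbp1 in 5. Slc1a3 and Sox9 were detected in 1 cell each, and Apoe and Aqp4 in 0. Bipolar cell markers were detected in at most 6 cells each (Prkca), with Trpm1 and Vsx1 in 0. Of 5 microglia and vessel markers, 4 were detected in no cell, among them Cx3cr1, C1qa and Csf1r, and 1 in P4 cell A3 alone. Of the pigment epithelium markers, Rpe65, Tyr, Tyrp1 and Dct were detected in 0 cells. Mitf was detected in A2 of the P5 group without stated culture, C6, D3, E3, E4 and B3 of the P8 pSynapsin group.

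Pax6 signals overlapped between cells with Gad1 and cells with Slc6a9. The 10 cells with Gad1 alone had Pax6 signals from 2034 over a median of 22936 to 62673. The 13 cells with Slc6a9 alone had signals from 9755 over a median of 17852 to 24744. The Gad1 cells thus held both ends of the range, and the Slc6a9 cells lay inside it. The mean log2 signal was 14.39 ± 1.31 in the Gad1 cells (SD, n = 10) and 14.03 ± 0.45 in the Slc6a9 cells (SD, n = 13), a difference of 0.36. Of the 8570 genes detected in at least 2 cells, 26.8% differed by at least 1 on the log2 scale between these sets, Pax6 did not, and 68.8% of them had a difference at least as wide as that of Pax6. The ranges overlapped, as for all but 0.035% of genes. The median difference over these genes was -0.33. Rod markers differed too, with 8 lower by at least 1 in the Gad1 cells and 0 higher (21% of all genes were lower), and their part was not tested.

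These sets ran along the labelled groups. All 8 P5 pSynapsin and P8 cells had Slc6a9 alone and the E19 and P4 cells had Gad1 alone, so class and group were confounded. Within the P5 pNdrg4 cells without stated culture, the difference was 0.65 (6 Gad1 cells against 2 Slc6a9 cells), and within the cultured P5 pNdrg4 cells it was -0.39 (1 against 3). Over all cells it was 0.03 after quantile normalization, 0.74 without the E19 cell and 0.19 without A8. Cell A6, with both genes, had a Pax6 signal of 17758, and the 2 cells with neither, A2 and D6, had 29225 and 18777. D6 missed Slc6a9 narrowly, at 989.9.

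Culture was compared within P5 pNdrg4 cells. The cultured cells had a log2 Pax6 signal of 14.34 ± 0.23 (SD, n = 5 cells) and the cells without stated culture 14.70 ± 0.57 (n = 10), a difference of -0.36, or a ratio of 0.780. All 5 cultured cells fell inside the range of the other 10. Of the genes tested, 35.6% differed by at least 1, Pax6 did not, and 74.3% differed at least as widely as Pax6. The median gene was 0.31 higher in the cultured cells, and the cultured cells had more genes detected, 3049 to 3925 against 1909 to 3513 in the others. Of 11 housekeeping genes, 6 were lower by at least 1 in the cultured cells (9.05% of all genes were) and 0 higher, with a median of -1.06. Actb, Actg1, Eef1a1, Tpt1, Rpl13a, Rplp0 and Pgk1 of this list were detected in all 26 cells and Hprt in 15. Of the rod markers, 6 were lower and 0 higher. The part of these shifts in the Pax6 difference was not tested. Without A8 the difference was -0.22. After quantile normalization the Pax6 difference was 0.47, the opposite sign, with a median over genes of 0.08, so its direction depended on the scaling.

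On the other 4 Pax6 probe sets the mean was higher in the cultured cells, on 1456342_at by 0.31, which was also the difference of the median gene. 1437816_at was detected in 5 of 5 cultured cells, at 2728 to 17930, and in 5 of 10 cells without stated culture, at 84.3 to 14227. The difference was 2.65, and 3.14% of genes differed as widely. 1452526_a_at was detected in 5 of 5 cultured cells (2494 to 6382) and in 8 of 10 of the others (91.5 to 8948), a difference of 0.997 that 35.7% of genes reached. 1425960_s_at was detected in 3 of 5 and 0 of 10, a difference of 1.22 that 27.3% of genes reached, and 1456342_at in no cell of either group. The ranges of the groups overlapped on all 5 probe sets, whereas 0.338% of genes had no overlap. Here and below, such shares were counted on each gene's brightest probe set. Beside the 4 dimmer Pax6 probe sets they therefore compare unlike probe sets.

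The reporter was compared within cultured cells of one age. At P5 the log2 Pax6 signal was 13.94 ± 0.37 in pSynapsin cells (n = 4) and 14.34 ± 0.23 in pNdrg4 cells (n = 5), a difference of -0.40, with overlapping ranges. Here 38.6% of genes differed by at least 1 and 71.6% at least as widely as Pax6. Of the rod markers, 8 were higher by at least 1 in the pSynapsin cells and 0 lower, with a median of 1.88 (20.7% of all genes were higher), and their part in the Pax6 difference was not tested. 1452526_a_at was 1.91 lower on the log2 scale in the pSynapsin cells, at 482.0, 1031, 1199 and 1735 against 2494 to 6382 in the pNdrg4 cells, and 1425960_s_at was 1.82 lower, at the floor in all 4 pSynapsin cells. On these 2 probe sets the groups did not overlap, as was the case for 1.55% of genes. On 1425960_s_at the pNdrg4 cells read 213.7 to 1549, and 3 of 5 were detected. The lowest of them, D3, was not detected and lay just above the floor, so the groups were only narrowly apart on this probe set. 1437816_at overlapped between the groups at a difference of -1.13.

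At P8 the log2 Pax6 signal was 13.62 ± 0.27 in pSynapsin cells and 13.69 ± 0.62 in pNdrg4 cells (n = 2 each), a difference of -0.07, while 49.8% of genes differed by at least 1. It was 0.37 without pNdrg4 cell A1 and -0.51 without pNdrg4 cell A2, so its sign rested on 1 cell. 1437816_at read 8676 and 6577 in the pSynapsin cells, against 421.2 and 1150 in the pNdrg4 cells, a difference of 3.44 with no overlap. With 2 cells a side, 21.3% of genes had no overlap. On 1452526_a_at the difference was -0.14.

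Age was compared within each reporter, between retinas cultured for 8 and for 5 days, so age and time in culture cannot be told apart. In pNdrg4 cells the log2 Pax6 signal was 13.69 ± 0.62 at P8 (n = 2) and 14.34 ± 0.23 at P5 (n = 5), a difference of -0.66, and in pSynapsin cells it was 13.62 ± 0.27 at P8 (n = 2) and 13.94 ± 0.37 at P5 (n = 4), a difference of -0.32. Both pairs of groups overlapped on the main probe set. By at least 1, 45.9% of genes differed in the pNdrg4 cells and 45.2% in the pSynapsin cells. Which P8 pNdrg4 cell was kept decided the size in that reporter, with -0.22 when only A1 was used and -1.09 when only A2 was used. In pSynapsin cells the difference was -0.13 when only B3 was used at P8 and -0.51 when only B4 was used.

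On 1437816_at the difference had opposite signs in the reporters, and on 1452526_a_at it was negative in both. In pNdrg4 cells 1437816_at read 1150 and 421.2 at P8 and 2728 to 17930 at P5, a difference of -3.57. 1452526_a_at read 292.2 and 1895 at P8 and 2494 to 6382 at P5, a difference of -2.35. Neither overlapped, as was the case for 6.52% of genes. In pSynapsin cells the same probe sets differed by 1.004 and -0.58 between P8 and P5, with overlap, as for all but 7.77% of genes. The rod markers were higher at P8 in pNdrg4 cells too, 9 of them by at least 1 (26.3% of all genes were), and their part in these differences was not tested.

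No difference of the main probe set reached 1 on the log2 scale in these 6 comparisons, whereas 26.8% to 49.8% of genes did. Those genes had to be detected in only 2 cells, whereas Pax6 was detected in all 26, so the shares compare unlike genes. The 4 differences by reporter and age were negative as deposited, and the reporter difference at P8 was 0.16 after scaling to the 75th percentile.

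Cell by cell, Pax6 signal was lower where more genes were detected. Over 26 cells the Spearman correlation between the main probe set and the number of genes detected was -0.55 (Pearson -0.30), over the 25 cells without E19 -0.67, and within the 10 P5 pNdrg4 cells without stated culture -0.37. Cell A8, with the highest Pax6 signal, had 1966 genes detected and was also the highest cell for 28 of the 124 genes detected everywhere. The points share the scaling, which holds the mean of every array at 500. After quantile normalization the correlation was -0.15. On the 4 other Pax6 probe sets it ran from 0.13 to 0.36, with 1456342_at, detected in 0 cells, at 0.21.

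**Figure D4:**
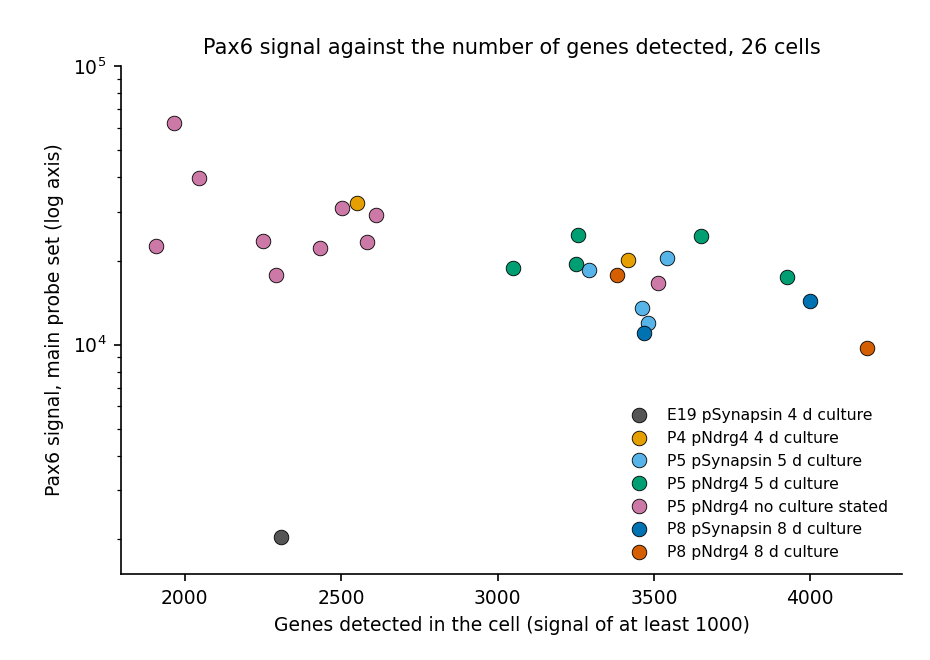
Signal of the main Pax6 probe set (log axis) against the number of genes detected in each of 26 cells, coloured by group. The 5 highest Pax6 signals lie in cells with 1966 to 2610 genes, the P8 cells lie at the lower right, and the E19 cell lies apart at 2306 genes and a signal of 2034.

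Among 767 genes detected in at least 20 cells, those with the pattern most like Pax6, by Spearman correlation over 26 cells, were Basp1 (0.63), a membrane protein of growing axons, Hmgn1 (0.62), a nucleosome-binding protein, and Cd24a (0.60), a surface protein of young neurons. Rab14 (0.60), a vesicle GTPase, Rpl27a (0.59), a ribosomal protein, Tfap2b (0.59), Ube2b (0.58), a ubiquitin-conjugating enzyme, Eif4g2 (0.55), a translation factor, Marcksl1 (0.54), an actin-binding protein, and Cox4i1 (0.53), a subunit of cytochrome oxidase, followed. The genes least like it were Apbb1 (-0.54), an adaptor that binds the amyloid precursor protein, Lamtor4 (-0.53), Cct7 (-0.51), a chaperonin subunit, Ice1 (-0.51) and Ube2e1 (-0.50).

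A best value of 0.63 was no higher than usual. The median gene of the 767 had a best partner at 0.65, and 32.2% had a lower best value than Pax6. Within the 10 P5 pNdrg4 cells without stated culture, the 10 genes correlated positively, from 0.26 to 0.68. Those cells were among the cells used to pick the genes, so this was no separate check of the genes. With 1437816_at in place of the main probe set their values ran from -0.32 to 0.02. None of the 10 stayed among the 10 most like genes after quantile normalization or without the P5 pNdrg4 cells that lack a stated culture, and 5 stayed without the E19 cell.

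**Figure D5:**
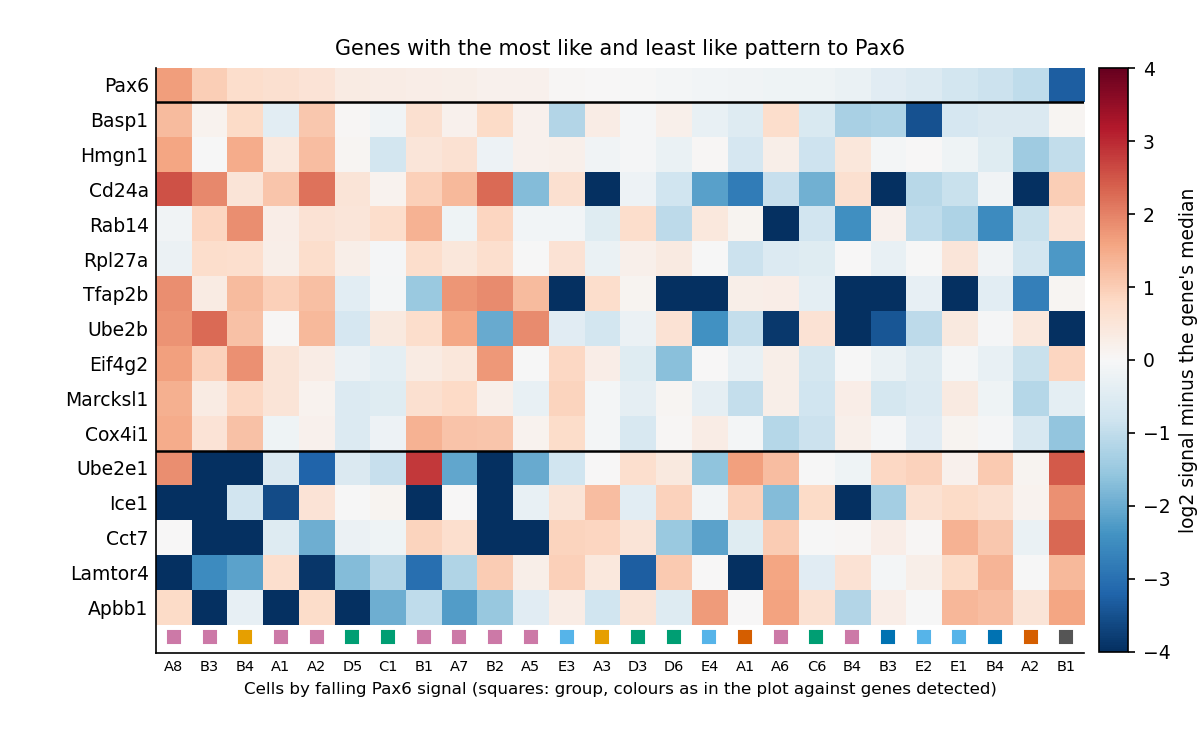
Log2 signal minus the gene's own median for Pax6, the 10 most like genes (between the black lines) and the 5 least like genes (below), with cells in order of falling Pax6 signal and squares giving their group. The 10 genes have Spearman correlations of 0.53 to 0.63 with Pax6 and the 5 genes -0.50 to -0.54.

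The other regulators of the lists used here were detected in fewer cells than Pax6. Outside these lists, further transcription factors, among them Sox4, Thra and Tsc22d1, were detected in every cell, as were 0.682% of all genes. Of 46 measured transcription factors in lists of the Pax family, eye field and retinal regulators, retinal bHLH factors and amacrine factors, 1 (Pax6) was detected in every cell, 2 in at least 20 cells, 7 in at least 13 and 14 in none. The 7 other measured Pax genes, Pax1, Pax3, Pax4, Pax5, Pax7, Pax8 and Pax9, were detected in 0 cells, with a highest signal of 491.6 for Pax3. Of the retinal bHLH factors, Nhlh2 was detected in 13 cells.

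Genes that work beside Pax6 in forming the eye were found in part of the cells. Six3, a homeodomain repressor of the forebrain and eye, was detected in 15, Meis1 and Meis2, homeodomain factors that bind a lens enhancer of Pax6, in 12 each, and Six6, a relative of Six3, in 11. Sox2 and Tbx3 were detected in 4 cells each, Lhx2 and Otx2 in 3 each and Rax in 2. Their Spearman correlations with Pax6 ran from -0.38 for Six6 to 0.36 for Meis1. In the culture comparison, 6 of these 9 genes were lower by at least 1 in the cultured cells and 2 were higher, with a median of -1.28, beside 9.05% lower and 26.5% higher over all genes. Markers of progenitors and cycling cells summed to 309.7 to 1750 in the cultured cells and 472.5 to 45736 in the others, and their part in this was not tested.

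Transcripts for 5 proteins that act on Pax6 protein were detected in 5 to 25 cells each. Ppp1ca, a phosphatase subunit, was detected in 25 cells and Smarca4, a chromatin remodelling ATPase that partners Pax6, in 23. Hipk2, a kinase that phosphorylates Pax6, was detected in 14 cells and Trim11, a ubiquitin ligase for Pax6, in 8. The acetyltransferase gene Ep300 was detected in 5.

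Genes reported as Pax6 targets in other mouse tissues differed widely. Mab21l1 and Mab21l2, needed for lens and eye growth, were detected in 20 and 19 cells, Sox11, a factor of young neurons, in 16 and Fabp7, a fatty acid binding protein of radial glia, in 9. Glucagon (Gcg), a target in the pancreas, was detected in 4 cells, Prox1 in 2, and the lens crystallins Cryab and Cryaa in 1 and 0. Neurog2, a bHLH factor of progenitors, was detected in 4 cells, Atoh7 and Ptf1a, which direct ganglion and amacrine fates, in 0.

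On the chromosome, the genes beside Pax6 were detected in fewer cells, as were all but 0.682% of the 18193 genes. Immp1l, a mitochondrial peptidase, was detected in 17 cells, Rcn1, a calcium-binding protein of the endoplasmic reticulum, in 11 and Dnajc24 in 5. Elp4, an Elongator subunit that overlaps Pax6 in the annotation and whose introns hold Pax6 enhancers, was detected in 5 cells, Paupar, a long noncoding RNA upstream, in 2, Mpped2 in 1 and Wt1 in 0. Pax6os1, the antisense RNA that overlaps Pax6, was detected in cell C1 alone, at 4234, and the next highest cell, B3 of the P8 pSynapsin group, read 866.6. The labelled cDNA was double-stranded, so signals of overlapping sense and antisense transcripts cannot be told apart by strand.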

How the data were processed

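Expression was measured in 26 single cells, each on 1 array. Per the labels' protocols, cDNA was primed with oligo dT, tailed, amplified by 35 cycles of PCR and biotin labelled. The authors deposited linear signal intensity values, computed per probe set in MAS5 according to the submitters' processing notes (version not given in the sources used here). The trimmed mean (2% at each end) of every array is 500 in the deposited table, and the signals were not scaled again. The amplification and this scaling both act on a gene's signal relative to the other genes of its cell, so levels are relative within an array. The number of arrays limits the precision.

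Probe sets annotated to 1 gene were used. Before log2 transformation, signals under 200 were set to 200, which understates a gap against a group at the floor. Comparisons are differences of group means over genes detected in at least 2 cells (8570). The table holds no detection calls. Computing used Python 3.11.15, numpy 2.4.6, pandas 2.3.3 and scipy 1.17.1, and the steps were tested on simulated data. Promoter sequences are from RefSeq (GRCm38.p6).

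The genes of the lists, the comparisons and the rule for naming genes were chosen with earlier results of these data known. Named were Pax6, the 10 most and 5 least like genes, all measured genes of the Pax, neighbour and eye field lists, defining markers of other cell types, and all other list genes detected in at least 13 cells. Others were named after their values were seen. List genes that no probe set names were left out. Alternatives covered the probe set, floor, scaling, detection level, medians, single cells and groups left out. The E19 cell left out, counts of probe sets and settings for the number of genes detected were added after seeing the data.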

Additional observations from a re-analysis of the deposited data

Results flagged for a closer look

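In the P5 pSynapsin group, cell E1 read 249.133 on probe set 1437816_at, far below the other 3 cells at 7184, 10377 and 10826. Its gap to the nearest of them took up a fraction of 0.891 of the group's whole range on the log2 scale, above the 95% critical value of 0.829 for 4 cells. It was 1 of 14 such checks over groups and probe sets, and chance passes about 5% of them if cells are independent, which the labels do not settle. In the same cell the main Pax6 probe set read 11931 and 1452526_a_at read 1199, both detected. Without E1 the P5 pSynapsin group would have 1437816_at detected in all of its cells.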

How the results depend on the processing

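Cells are the only replication, and the number of animals behind a group is not known. No paired analysis was possible because the replicate numbers only name cells. No test between groups was made, and the outlier checks above treat cells as independent. The differences moved with the probe set, with scaling and with single cells. In the order 1425960_s_at, 1437816_at, 1452526_a_at and 1456342_at, the culture difference was 1.22, 2.65, 0.997 and 0.31, and the reporter difference at P5 was -1.82, -1.13, -1.91 and 0.63. At P8 the reporter difference was -0.96 on 1425960_s_at, 3.44 on 1437816_at and 1.53 on 1456342_at. Probe sets 1425960_s_at and 1456342_at were detected in no P8 cell, and on each of them 1 reporter's cells lay at the floor, so -0.96 and 1.53 measure no difference in Pax6. The age difference in pNdrg4 cells was -3.57 on 1437816_at and -2.35 on 1452526_a_at, and in pSynapsin cells 1.004 on 1437816_at and 0.30 on 1456342_at. The difference between Gad1-only and Slc6a9-only cells was -1.04 on 1437816_at. With the median over the 5 probe sets of each cell, the culture difference was 2.18, the reporter difference -2.33 at P5 and 0.53 at P8 and the age difference in pNdrg4 cells -2.98. With quantile normalization the culture difference was 0.47 and the reporter difference at P5 -0.75. Pax6 was detected in 3, 17 and 0 cells by 1425960_s_at, 1452526_a_at and 1456342_at and in 11 by the median, and the SD over cells was 2.19 on 1437816_at, 1.60 on 1452526_a_at and 1.53 with the median. Of the 10 genes most like Pax6, 0 stayed with each other probe set, the median, quantile normalization or without the P5 pNdrg4 cells that lack a stated culture, 2 with scaling to the 75th percentile, 3 with Pearson's correlation and 5 without the E19 cell. The correlation with genes detected reversed to 0.25, 0.36, 0.13 and 0.21 on the 4 other probe sets and to 0.0058 after quantile normalization with genes detected as deposited. The cause of these changes was not tested. Leaving out 1 cell at a time gave -0.44 to -0.22 for culture, -0.53 to -0.27 for reporter at P5, -0.51 to 0.37 for reporter at P8, -1.09 to -0.22 for age in pNdrg4 cells, -0.51 to -0.13 for age in pSynapsin cells and 0.19 to 0.74 for Gad1-only against Slc6a9-only cells.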
